A study of Homo sapiens with 12 samples.

Results

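The expression of 10 genes of the NF-κB pathway was followed in the pancreatic cancer lines Pa-Tu-8902 and MIA PaCa-2, before and after induction of a hairpin against GOT1, the cytosolic aspartate aminotransferase. The 10 members were taken by symbol from the 58721 genes of the deposited tables, and all 10 were present and passed the filter on low counts in both lines: BIRC3, BIRC2, TRAF1, MAP3K14, NFKB1, NFKB2, RELA, RELB, NFKBIA and TNFAIP3. The list was selected on measured values: BIRC3 and NFKB2 were chosen by the difference of their response to doxycycline (dox) between the lines, so their own responses are given below as a description with no test. The other 8 members belong to the same pathway and were tested among all genes. They too were listed with earlier results of these data known. Their tests use the same libraries and contrasts that chose BIRC3 and NFKB2. Counts of these 8 set beside the shares of all genes are therefore a description and no independent support.

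The 12 RNA-seq libraries form 4 groups of 3. Tu8902_mnsdox and MiaPaCa2_mnsdox are untreated cells, and Tu8902_plsdox and MiaPaCa2_plsdox are cells that received dox for 5 days. Cells of every group are iDox-shGOT1 cells, which carry a dox-inducible short hairpin RNA (shRNA) against GOT1, were grown in DMEM with 10% FBS and give poly(A) RNA of a culture in bulk. The labels write the dose of dox as 1 µM/mL and the methods of the study as 1 µg/mL, and neither names which of the study's hairpins the sequenced cells carry. No sequenced library came from cells with dox and without the hairpin, so an effect of dox and an effect of GOT1 loss cannot be told apart. Nothing in the sources says that the 3 libraries of a group came from separate cultures, and p-values then measure only the spread between these libraries.

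NF-κB is a family of dimeric transcription factors. In the canonical arm, receptors of the TNF and IL-1 families act through TRAF adaptors, the ubiquitin ligases BIRC2 (cIAP1) and BIRC3 (cIAP2) and the IκB kinase complex, which leads to destruction of the inhibitor IκBα (NFKBIA) and frees dimers of RELA with the product of NFKB1. In the noncanonical arm the kinase NIK (MAP3K14) triggers processing of the NFKB2 precursor, the partner of RELB, while the cIAP proteins keep NIK low in resting cells. Several of these genes, among them NFKBIA, TNFAIP3, NFKB2 and BIRC3, are textbook targets of NF-κB itself, and the pathway is often active in pancreatic cancer. Protein and its processing were not measured here.

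The knockdown was checked on its target. GOT1 was at 78.3, 81.5 and 83.4 TPM (a transcript level scaled to the length of the transcript and to the total of the library) in untreated Pa-Tu-8902 and at 4.51, 3.29 and 3.68 TPM with dox, a log2 fold change of -4.64. In MIA PaCa-2 it was at 44.1, 38.9 and 42.7 TPM without and at 1.68, 1.95 and 1.87 TPM with dox, a log2 fold change of -4.76. Libraries held 26226537 to 43406137 counts. The line of each library rests on its title. A list of counts that accompanies the study carries the counts of the MIA PaCa-2 libraries under the name of the other line, so the titles were set against markers of cell type. All 6 epithelial markers reached 1 TPM in Pa-Tu-8902, with CDH1 (E-cadherin) at 60.0 to 139 TPM, while VIM (vimentin) lay between 2.54 and 10.5 TPM. In the libraries titled MIA PaCa-2, a line known for its loss of E-cadherin, CDH1 was at 0 to 0.22 TPM and EPCAM at 0.08 to 0.36 TPM while VIM reached 3531 to 4218 TPM. Not all markers divided the lines in this way. In MIA PaCa-2 4 of the 6 epithelial markers reached 1 TPM, with KRT8 at 1382 to 1667 TPM. Of the other mesenchymal markers ZEB1 was higher there (7.71 to 12.4 against 0.63 to 0.88 TPM). CDH2 (0 to 0.01 against 0.56 to 1.16 TPM) and FN1 (0.03 to 0.16 against 0.36 to 1.02 TPM) were lower. Of 7 blood cell markers 2 reached 1 TPM in either line (CD14 and CD68), MS4A1 was at 0 in every library, and PTPRC did not exceed 0.14 TPM.

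The members lie on 8 chromosomes of GRCh38 (positions from GENCODE release 44, whole gene with its exons and introns). BIRC3 (ENSG00000023445, chr11:102317484-102339403) and BIRC2 (ENSG00000110330, chr11:102347211-102378670) are neighbours on the plus strand with 7807 bases between them, and the third member on that chromosome is RELA (ENSG00000173039, chr11:65653599-65663090, minus strand). NFKB1 (ENSG00000109320) lies at chr4:102501330-102617302, NFKB2 (ENSG00000077150) at chr10:102394110-102402524, RELB (ENSG00000104856) at chr19:45001461-45038192 and TNFAIP3 (ENSG00000118503) at chr6:137867214-137883314, all on the plus strand. NFKBIA (ENSG00000100906, chr14:35401079-35404749), TRAF1 (ENSG00000056558, chr9:120902393-120929173) and MAP3K14 (ENSG00000006062, chr17:45263119-45317029) lie on the minus strand. BIRC3, RELA, TNFAIP3 and MAP3K14 are each overlapped by a gene on the opposite strand. The libraries are strand-specific, but the strand setting of the counting is not given in the sources used here beyond the default of the counter, so reads of these pairs may not be separated. MAP3K14-AS1, the antisense gene of MAP3K14, was at 0.79 to 4.65 TPM over the 12 libraries.

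Promoter windows of 250 bases before to 50 after the start were available from RefSeq (GRCh38.p14) for 9 of the 10 members, RELB being the exception. These windows were searched on both strands for the NF-κB (κB) consensus motif of 10 bases, and 5 of the 9 members held a match in at least 1 of their windows, against 13.3% of the 27305 genes of that table. NFKB2, BIRC3, TNFAIP3, NFKB1 and NFKBIA held it. No match was present in the windows of BIRC2, RELA, TRAF1 and MAP3K14, which says only that these letters are not in these 300 bases. The matched promoters are shown because the genes behind them responded to dox by very different amounts. Each is written 5′ to 3′ on the strand of its gene, with the matched bases in capitals.
BIRC3, chr11:102317234-102317483, plus strand, the 250 bases before the start: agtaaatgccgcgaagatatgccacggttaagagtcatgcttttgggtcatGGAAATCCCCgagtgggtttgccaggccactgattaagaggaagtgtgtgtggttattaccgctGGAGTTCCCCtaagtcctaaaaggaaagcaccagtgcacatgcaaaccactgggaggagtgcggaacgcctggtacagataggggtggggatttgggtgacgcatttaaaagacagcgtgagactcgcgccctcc
NFKB2 start 3, chr10:102395455-102395704, plus strand, the 250 bases before the start: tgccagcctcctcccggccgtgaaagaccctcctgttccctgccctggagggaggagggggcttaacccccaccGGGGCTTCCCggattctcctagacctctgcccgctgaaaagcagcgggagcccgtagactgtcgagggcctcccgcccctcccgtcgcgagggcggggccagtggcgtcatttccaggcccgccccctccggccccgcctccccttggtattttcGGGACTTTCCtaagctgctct
NFKB2 start 2, chr10:102394456-102394524, plus strand, around the matches: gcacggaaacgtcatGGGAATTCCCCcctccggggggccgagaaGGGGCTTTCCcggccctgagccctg
NFKB1, chr4:102501295-102501334, plus strand, around the match: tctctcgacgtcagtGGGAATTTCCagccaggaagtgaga
NFKBIA, chr14:35404806-35404845, minus strand, around the match: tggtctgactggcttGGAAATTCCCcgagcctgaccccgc
TNFAIP3, chr6:137867177-137867228, plus strand, around the matches: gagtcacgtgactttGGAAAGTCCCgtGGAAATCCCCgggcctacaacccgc

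The matches in BIRC3 begin at -199 and -135, counted in bases from its start. NFKB2 has 3 annotated starts, of which the second holds matches that begin at -107, -106 and -78 (the first pair overlap, and are seen above as 1 run of capitals) and the third holds matches at -176 and -21. TNFAIP3 holds 2 matches, at -67 and -55, separated by 2 bases, NFKB1 has 1 at -49 and NFKBIA 1 at -81. All of these lie upstream of the start.

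**Figure D1:**
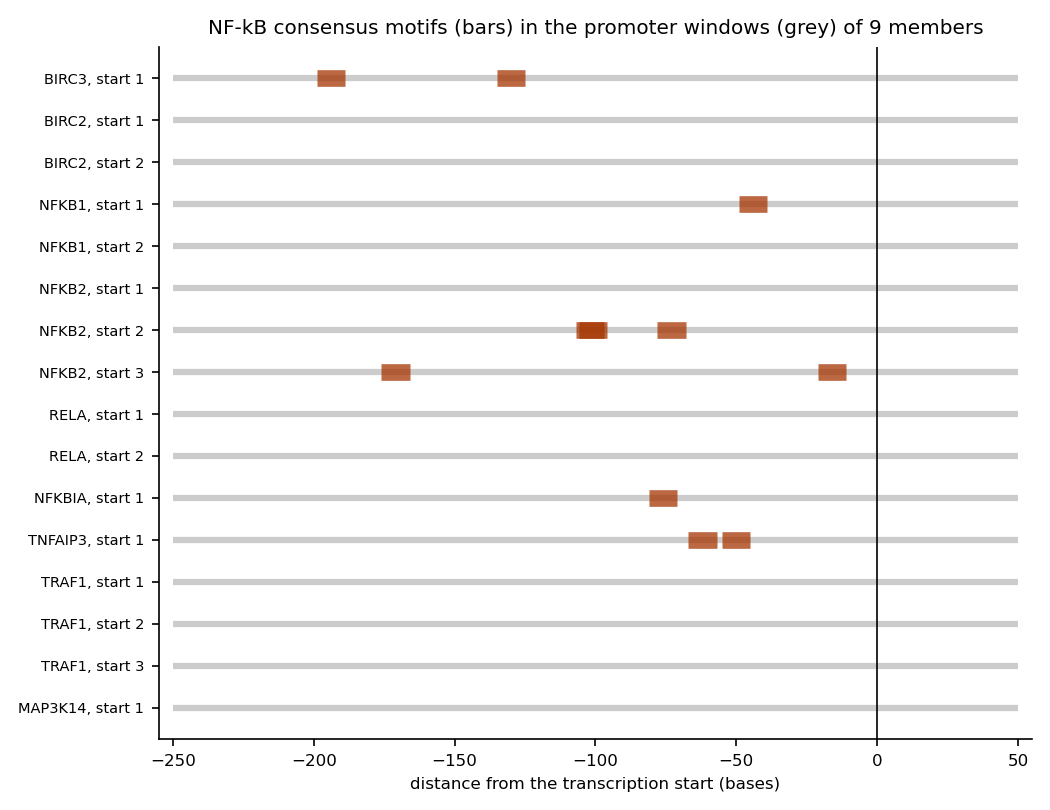
Position of NF-κB consensus matches (coloured bars) in the RefSeq promoter windows (grey lines) of 9 members, with the distance from the transcription start in bases on the horizontal axis and 1 row per annotated start. BIRC3, NFKB1, NFKB2, NFKBIA and TNFAIP3 hold matches, all of them upstream of the start, and the other 4 members hold none.

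Transcripts that begin at start 3 of NFKB2, whose window holds the match at -21, made up 66.6% to 77.1% of the gene's TPM over the 12 libraries, and those at start 2 made up 14.9% to 23.8%. The shares at start 3 were 72.8% to 76.8% in untreated and 68.0% to 72.0% in dox-treated Pa-Tu-8902, and 71.9% to 74.1% and 66.6% to 77.1% in MIA PaCa-2. In Pa-Tu-8902 the groups did not overlap at start 3, with dox lower, nor at start 1 (0.944% to 1.76% untreated, dox-treated 1.97% to 3.11%), while in MIA PaCa-2 the start 3 shares overlapped. No test was run on these shares. Transcripts at the BIRC3 start shown above made up 97.5% to 100% of the gene's TPM in every library.

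The responses of the members to dox are described first in MIA PaCa-2, where they were larger. All 8 tested members had a log2 fold change above 0 there (0.29 to 1.42, median 0.89), beside a median of -0.01 over the 14589 genes tested. Genes were called at a Benjamini-Hochberg adjusted p below 0.01 with at least 1.5 fold between the groups, by edgeR's quasi-likelihood test over all genes. By this rule 4.36% of all genes tested were higher with dox, 7.64% were lower and 12% were called in either direction. Among the 8 tested members 7 were called, all higher with dox, and RELA was not. BIRC3 and NFKB2, which chose the list, lay past the same limits and add nothing to that count.

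BIRC3, whose product cIAP2 is a ubiquitin ligase of the TNF receptor complex, had the largest fold change among the members in MIA PaCa-2. It was at 2.63, 2.30 and 2.57 TPM in untreated libraries and at 19.15, 18.8 and 19.2 TPM with dox. The groups were far apart, with a fold change of 6.98 (log2 2.80, SE 0.070). In Pa-Tu-8902 the same gene was at 72.0, 72.2 and 63.4 TPM without and at 131, 108 and 119 TPM with dox. Every dox library again lay above every untreated one, with a fold change of 1.65 (log2 0.73, SE 0.059). The lowest BIRC3 level in Pa-Tu-8902 was above the highest in MIA PaCa-2 with dox, so the line with the larger response kept the lower level.

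NFKB2, which encodes the p100 precursor of the noncanonical arm, differed in direction between the lines. In Pa-Tu-8902 it was at 42.8, 47.7 and 45.6 TPM in untreated libraries and at 35.1, 32.1 and 38.1 TPM with dox, a log2 fold change of -0.43 (SE 0.046). In MIA PaCa-2 it was at 31.6, 26.3 and 34.6 TPM without and at 72.8, 65.5 and 65.0 TPM with dox, a log2 fold change of 1.19 (SE 0.065). The groups did not overlap in either line, with dox below untreated in Pa-Tu-8902 and above it in MIA PaCa-2. Untreated, NFKB2 was higher in Pa-Tu-8902, and with dox it was higher in MIA PaCa-2.

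**Figure D2:**
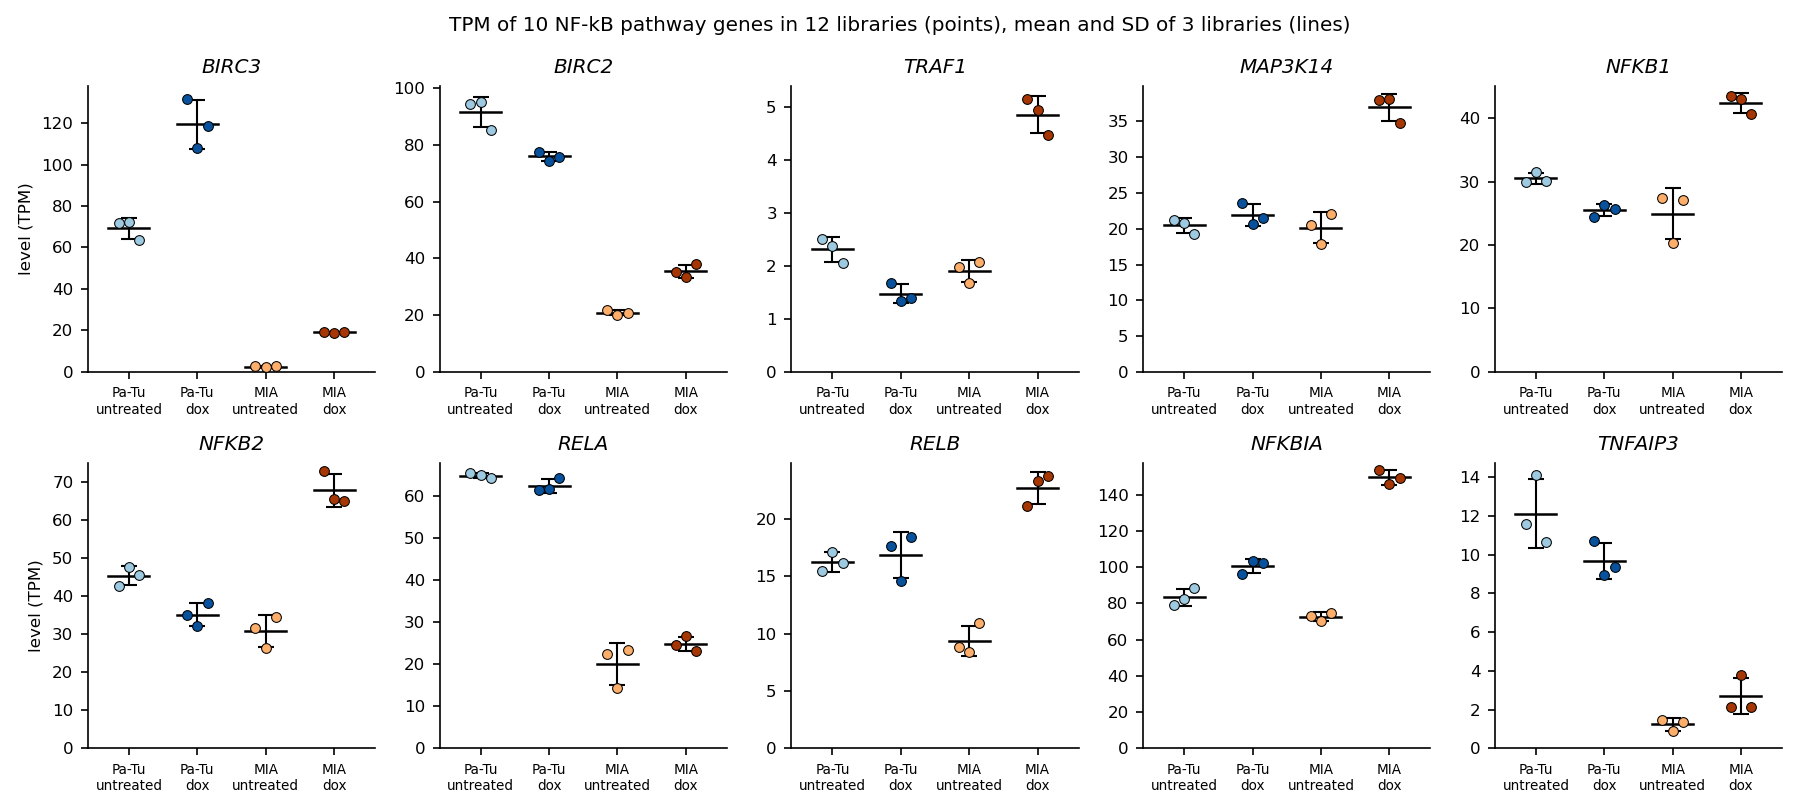
Level in TPM (vertical axes, from 0, a separate scale per gene) of the 10 members in each of the 12 libraries, with points for libraries and lines for the mean and SD of 3 libraries of a group. The dox libraries of MIA PaCa-2 lie above its untreated ones for every member except RELA, whose values overlap, while in Pa-Tu-8902 the direction varies by gene. BIRC3 and NFKB2, which chose the list, are among these members, and the share of all genes with such a separation is not given here.

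BIRC2 encodes cIAP1, the close relative of cIAP2 and its neighbour on the chromosome. In MIA PaCa-2 it was at 21.7, 19.96 and 20.8 TPM without and at 35.3, 33.3 and 37.8 TPM with dox, and it rose 1.67 fold (log2 0.74, SE 0.069, edgeR adjusted p 1.07e-05). Pa-Tu-8902 held it at 94.3, 95.0 and 85.4 TPM without and at 77.7, 74.3 and 75.7 TPM with dox, a log2 fold change of -0.38 (SE 0.044, edgeR adjusted p 4.74e-05) that stayed under 1.5 fold and was not called. The groups were apart in both lines, and in opposite directions. BIRC2 and BIRC3, although neighbours, both lay higher with dox in MIA PaCa-2 and lay in opposite directions in Pa-Tu-8902.

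TRAF1, an adaptor that binds the cIAP proteins at TNF receptors and is itself a known NF-κB target, was low in both lines. In MIA PaCa-2 it was at 1.98, 1.68 and 2.08 TPM without and at 5.15, 4.96 and 4.48 TPM with dox, and it rose 2.19 fold (log2 1.13, SE 0.10, edgeR adjusted p 7.21e-06). Pa-Tu-8902 libraries held 2.52, 2.38 and 2.06 TPM without and 1.68, 1.34 and 1.40 TPM with dox. This log2 fold change of -0.57 (SE 0.12, edgeR adjusted p 0.00287) missed the limit of 1.5 fold narrowly. Without any 1 of 3 libraries of Pa-Tu-8902 (untreated replicate 2, untreated replicate 3 or dox replicate 1), TRAF1 was called lower, at log2 fold changes of -0.60, -0.62 and -0.67.

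MAP3K14 encodes NIK, the kinase that starts the noncanonical arm. In MIA PaCa-2 it was at 20.6, 17.8 and 22.1 TPM without and at 38.0, 38.2 and 34.7 TPM with dox, and it rose 1.78 fold (log2 0.83, SE 0.066, edgeR adjusted p 2.99e-06). The gene was at 21.3, 20.9 and 19.3 TPM without and at 23.6, 20.6 and 21.5 TPM with dox in Pa-Tu-8902, and these values overlapped (log2 fold change 0.02, SE 0.050, edgeR adjusted p 0.764). Its untreated levels overlapped between the lines.

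Among the DNA-binding subunits, RELB and NFKB1 rose in MIA PaCa-2 and RELA was not called in either line. RELB, the partner of the NFKB2 product, was at 8.87, 8.36 and 10.9 TPM in untreated MIA PaCa-2 and at 21.1, 23.3 and 23.7 TPM with dox (2.42 fold, log2 1.27, SE 0.095, edgeR adjusted p 1.98e-06). In Pa-Tu-8902 its values overlapped, with 15.4, 17.2 and 16.2 TPM without and 17.7, 14.6 and 18.4 TPM with dox (log2 fold change -0.09, SE 0.079, edgeR adjusted p 0.346). The sign of this small value in Pa-Tu-8902 depended on the scale, since the ratio of mean TPM gave 0.05 on the log2 scale. RELB thus changed rank, from below the level of Pa-Tu-8902 to above it.

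NFKB1, the precursor of the canonical partner subunit, was at 27.5, 20.3 and 27.1 TPM in untreated MIA PaCa-2 and at 43.5, 43.02 and 40.7 TPM with dox (1.64 fold, log2 0.71, SE 0.072, edgeR adjusted p 1.88e-05). The Pa-Tu-8902 libraries were at 30.0, 31.5 and 30.2 TPM without and at 24.4, 26.3 and 25.7 TPM with dox, a log2 fold change of -0.35 (SE 0.055, edgeR adjusted p 0.000394) below 1.5 fold. The groups did not overlap in either line and again pointed in opposite directions.

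RELA, the main activating subunit of the canonical arm, was at 22.5, 14.4 and 23.3 TPM in untreated MIA PaCa-2 and at 24.7, 26.6 and 23.2 TPM with dox (log2 fold change 0.29, SE 0.10, edgeR adjusted p 0.0399). The untreated replicate 2 stood apart from the other untreated libraries, and without it the log2 fold change was 0.17 (edgeR adjusted p 0.0528). In Pa-Tu-8902 it was at 65.4, 64.9 and 64.3 TPM without and at 61.4, 61.7 and 64.3 TPM with dox (log2 fold change -0.16, SE 0.060, edgeR adjusted p 0.0412). RELA therefore had the smallest response of the 10 members in MIA PaCa-2. By TPM, replicate 2 was the lowest untreated library of that line for all 10 members. This did not hold for the counts normalized by TMM, which the tests used. By these counts replicate 2 was the highest for BIRC3, BIRC2, NFKB2 and NFKBIA and the lowest for NFKB1, RELA, TNFAIP3 and MAP3K14. The counts of replicate 2 differed from those of the other untreated libraries by 27.3 and 25.5 as chi-square over degrees of freedom, against 6.40 between those libraries. Without it 9 members lay past both limits in MIA PaCa-2, the number found with it (BIRC3 and NFKB2 included), and NFKB1 still rose, by 0.63 on the log2 scale (edgeR adjusted p 7.26e-09).

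Both inhibitors rose in MIA PaCa-2. NFKBIA, which encodes IκBα, was at 73.3, 70.0 and 74.9 TPM without and at 154, 146 and 149 TPM with dox (1.94 fold, log2 0.95, SE 0.066, edgeR adjusted p 1.17e-06). In Pa-Tu-8902 it was at 78.9, 82.6 and 88.4 TPM without and at 96.0, 103 and 102 TPM with dox (log2 fold change 0.18, SE 0.074, edgeR adjusted p 0.0655). The TPM values of Pa-Tu-8902 did not overlap, whereas its counts normalized by TMM did. NFKBIA was the most abundant of the 10 members in MIA PaCa-2, with and without dox.

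TNFAIP3, which encodes the ubiquitin-editing inhibitor A20, was near the lower end of the members in MIA PaCa-2, at 1.45, 0.87 and 1.37 TPM without and at 2.14, 3.77 and 2.15 TPM with dox (2.67 fold, log2 1.42, SE 0.15, edgeR adjusted p 2.98e-05). In Pa-Tu-8902 it was at 11.6, 14.1 and 10.7 TPM without and at 10.7, 8.97 and 9.34 TPM with dox (log2 fold change -0.23, SE 0.066, edgeR adjusted p 0.0137). The groups were apart in MIA PaCa-2, whereas those of Pa-Tu-8902 overlapped in TPM but not in TMM-normalized counts. The highest TNFAIP3 value of MIA PaCa-2 was below the lowest of Pa-Tu-8902.

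In Pa-Tu-8902 none of the 8 tested members was called by edgeR or by DESeq2, although 3 of them (BIRC2, NFKB1 and TRAF1) had an adjusted p below 0.01 at less than 1.5 fold. At an unadjusted p below 0.05 in edgeR, 6 of the 8 counted, 1 higher and 5 lower, beside 56.6% of all genes tested in this line. Among all 14949 genes tested in this line 9.22% were called higher and 7.12% lower, 16.3% in all. Of the 8 tested members 2 had a log2 fold change above 0, and the median was -0.20 (range -0.57 to 0.18), beside 0.00 for all genes. BIRC3 was the only member past both limits in this line, and it had chosen the list. With an adjusted p below 0.05 and no limit on the fold, 5 of the 8 tested members counted in Pa-Tu-8902, all lower, beside 25.6% of all genes lower and 51% in either direction.

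**Figure D3:**
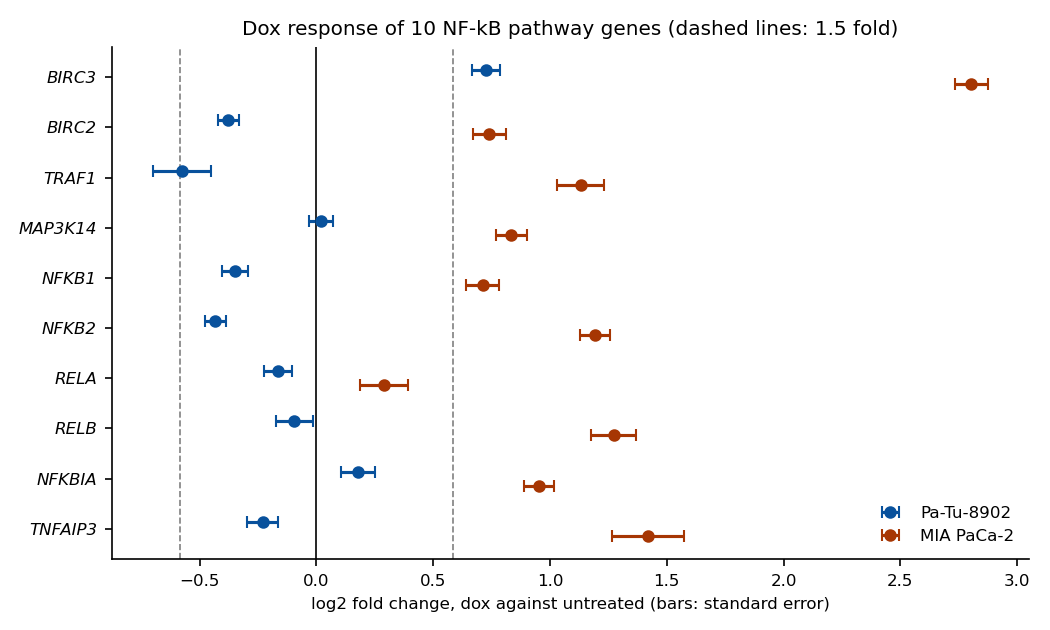
Log2 fold change of dox against untreated (horizontal axis, with bars for the standard error) of the 10 members in each line, with dashed lines at 1.5 fold. Every member lies further to the right in MIA PaCa-2, and only BIRC3 lies beyond the right dashed line in both lines.

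The question whether a response differed between the lines was tested directly, by the interaction contrast of a fit to all 12 libraries. The response was higher in MIA PaCa-2 for 7 of the 8 tested members by edgeR's adjusted p and the 1.5 fold limit. Among all 16544 genes tested 10.4% had a called difference, and 3.86% had one with the higher response in MIA PaCa-2. This contrast is the one by which BIRC3 and NFKB2 were chosen, so the count of the 8 is no independent support. TRAF1 had the largest difference of the 8, at 1.70 on the log2 scale (SE 0.16, edgeR adjusted p 5.51e-07), where MIA PaCa-2 responded by 1.13 and Pa-Tu-8902 by -0.57. TNFAIP3 followed at 1.65 (SE 0.15, edgeR adjusted p 4.29e-07) and RELB at 1.37 (SE 0.13, edgeR adjusted p 6.89e-07). These are an adaptor, an inhibitor and a subunit, so the difference was not confined to members of a single role.

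BIRC2 differed by 1.12 (SE 0.083, edgeR adjusted p 3.51e-08) and NFKB1 by 1.06 (SE 0.096, edgeR adjusted p 3.63e-07). MAP3K14 differed by 0.81 (SE 0.084, edgeR adjusted p 1.54e-06) and NFKBIA by 0.77 (SE 0.11, edgeR adjusted p 3.34e-05). RELA had the smallest difference, 0.45 (SE 0.13), which did not pass (edgeR adjusted p 0.0133). The differences of BIRC3 (2.08, SE 0.089) and NFKB2 (1.62, SE 0.081) are given as description only, since the list was picked for them.

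The untreated cells of the lines were compared next. The same untreated libraries entered the choice of BIRC3 and NFKB2, so both are given here as a description with no test. Of the 8 other members 4 (BIRC2, RELA, RELB and TNFAIP3) were called higher in untreated Pa-Tu-8902 than in untreated MIA PaCa-2, and none was called lower. The lines differ widely, since 57.5% of the 16544 genes tested were called and 29.4% were higher in Pa-Tu-8902. BIRC3 was 24.99 fold higher in Pa-Tu-8902 (log2 4.64, SE 0.071) and TNFAIP3 11.5 fold (log2 3.53, SE 0.11, edgeR adjusted p 4.16e-15). BIRC2 was 4.34 fold and RELA 3.06 fold higher there, RELB 1.74 fold and NFKB2 1.53 fold. For NFKB2 this lies close to the limit, and it fell below 1.5 fold without the untreated replicate 1 of MIA PaCa-2 (log2 0.58). NFKBIA, TRAF1, NFKB1 and MAP3K14 were not called, at log2 differences of -0.01 to 0.29. The untreated libraries enter this comparison and the dox responses alike, so the values stand side by side and were not correlated.

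Set side by side by mean TPM, untreated Pa-Tu-8902 held 27.7 times the BIRC3 of untreated MIA PaCa-2, and with dox this was 6.27 times. For TNFAIP3 the ratio was 9.84 without and 3.60 with dox, and for BIRC2 4.40 and 2.14. For NFKB2 it was 1.47 without dox and 0.518 with it, for RELB 1.73 and 0.743, and for TRAF1 1.21 and 0.303. NFKB1 and NFKBIA went from 1.22 to 0.601 and from 1.15 to 0.673, and MAP3K14 from 1.02 to 0.592. With dox, the 6 members NFKB1, NFKB2, RELB, NFKBIA, TRAF1 and MAP3K14 thus had the higher mean in MIA PaCa-2, and BIRC3, BIRC2, RELA and TNFAIP3 in Pa-Tu-8902.

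The order of the members by TPM also differed between groups. In untreated Pa-Tu-8902 it ran BIRC2, NFKBIA, BIRC3, RELA, NFKB2, NFKB1, MAP3K14, RELB, TNFAIP3 and TRAF1, from 91.6 ± 5.34 down to 2.32 ± 0.236 TPM (mean ± SD, n = 3). In that order BIRC2 overlapped NFKBIA, and BIRC3 overlapped RELA. With dox BIRC3 stood first in this line, at 119 ± 11.7 TPM, and no neighbours in the order overlapped. In untreated MIA PaCa-2 NFKBIA stood first at 72.7 ± 2.49 TPM, the next 5 (NFKB2, NFKB1, BIRC2, MAP3K14 and RELA) each overlapped their neighbour, and BIRC3 was eighth at 2.5 ± 0.176 TPM. With dox NFKBIA, NFKB2 and NFKB1 led in MIA PaCa-2, MAP3K14 overlapped BIRC2 and RELA overlapped RELB. BIRC3 remained eighth of 10 there, despite the largest fold change.

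Of the starts of TRAF1 transcripts, start 2 alone had shares that did not overlap between untreated and dox-treated libraries in both lines. Transcripts at its second start made up 19.8% to 27.0% of TRAF1 TPM in untreated and 41.8% to 53.0% in dox-treated Pa-Tu-8902. In MIA PaCa-2 the same start made up 16.7% to 44.7% without and 8.06% to 9.38% with dox. With dox the share was higher in Pa-Tu-8902 but lower in MIA PaCa-2. The shares at start 1 overlapped, at 34.6% to 72.9% (untreated) and 38.8% to 56.8% (dox) in Pa-Tu-8902 libraries, and at 55.3% to 70.8% and 64.9% to 72.3% in those of MIA PaCa-2. Start 3 varied within groups, with 40.9% in untreated replicate 2 of Pa-Tu-8902 against 7.25% and 8.73% in the other untreated libraries. The TPM of the transcripts at start 2 was 0.33 to 0.93 over all groups, while that of the first start went from 1.14 to 1.19 TPM in untreated to 3.24 to 3.46 TPM in dox-treated MIA PaCa-2. The shares come from estimates of transcript levels with few reads for each, and no test was run on them.

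**Figure D4:**
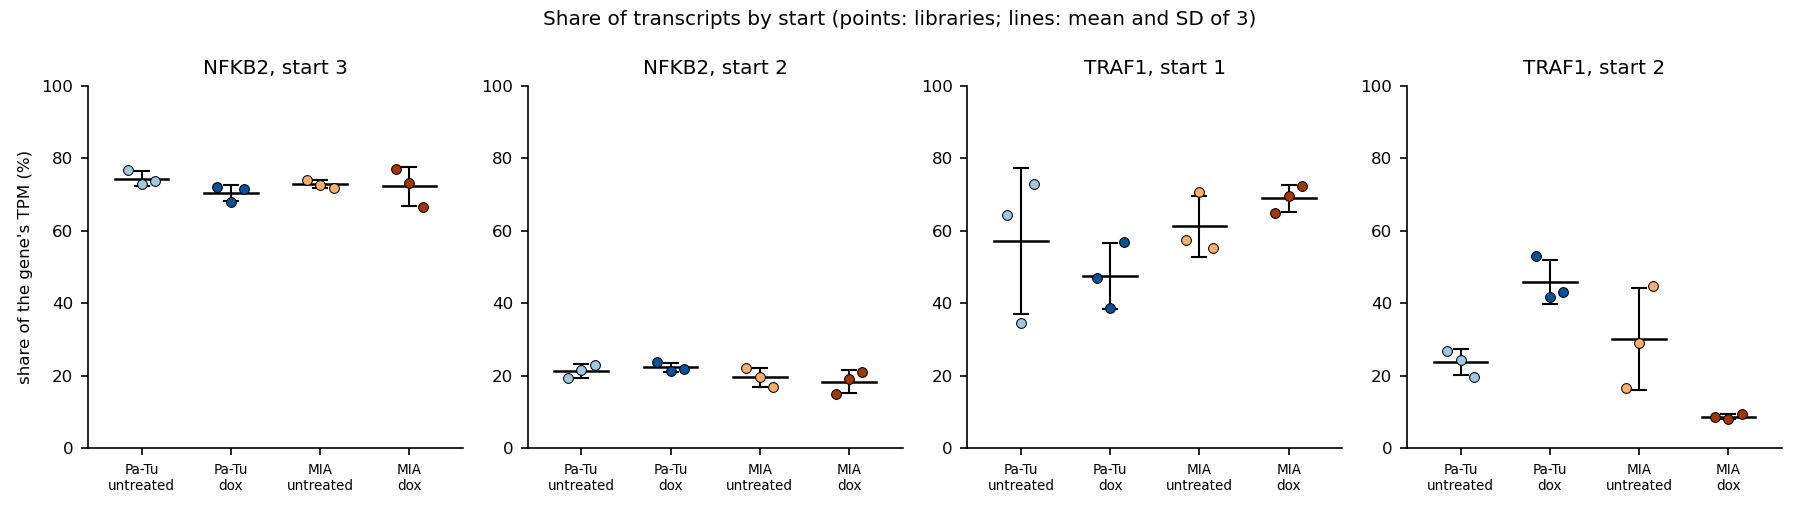
Share of the TPM of NFKB2 and TRAF1 (vertical axis, percent) that falls to transcripts at a given start, with points for the 12 libraries and lines for the mean and SD of 3. The NFKB2 shares lie within 66.6% to 77.1% (start 3) and 14.9% to 23.8% (start 2) in all groups, and the share of TRAF1 start 2 is highest in Pa-Tu-8902 with dox and lowest in MIA PaCa-2 with dox.

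Genes around the members in the pathway were described in 5 lists of 102 genes. In Pa-Tu-8902 86 of them were tested, 14 were called higher and 7 lower (24.4% called, beside 16.3% of all genes), with a median log2 fold change of -0.03. In MIA PaCa-2 73 were tested, 7 were called higher and 1 lower (11.0% called, beside 12% of all genes), with a median of 0.02. The number called in MIA PaCa-2 rested on single libraries, since 4 were called without dox replicate 1 or without dox replicate 2 of that line. Neither list median stood far from that of all genes. The calls among the wider pathway were thus more numerous in Pa-Tu-8902, where none of the 8 tested members was called, but the counts of the lines were not tested against each other.

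Of the receptors and ligands, 15 were tested in Pa-Tu-8902, with 4 called higher and 3 lower (beside 9.22% and 7.12% of all genes). TNFRSF1B, the TNF receptor type 2, rose from 1.40, 1.93 and 2.51 TPM to 13.98, 14.4 and 14.8 TPM (log2 fold change 2.90, SE 0.12, edgeR adjusted p 2.87e-08). IL1B, the IL-1β precursor, rose from 9.23 ± 1.18 to 19.7 ± 0.947 TPM, and TNFRSF12A, the TWEAK receptor, which signals to the noncanonical arm, fell from 193 ± 22.5 to 128 ± 5.46 TPM (mean ± SD, n = 3). In MIA PaCa-2 9 were tested and TNFRSF1B was the 1 called, beside 12% of all genes. TNFRSF1B was at 3.77, 2.67 and 3.10 TPM without and 5.51, 5.83 and 5.52 TPM with dox there (log2 fold change 0.89, SE 0.084, edgeR adjusted p 1.19e-05). IL1B was listed at 0 TPM in all 6 MIA PaCa-2 libraries.

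The 25 adaptors, ubiquitin ligases and kinases were all tested in both lines, and a single gene was called in each. MALT1, a protease and scaffold upstream of the IκB kinases, fell in Pa-Tu-8902 from 18.7 ± 1.01 to 12.6 ± 0.917 TPM (log2 fold change -0.65, edgeR adjusted p 4.36e-06). TRAF6, the ubiquitin ligase of the IL-1 and Toll-like receptor branch, fell in MIA PaCa-2 from 1.64 ± 0.300 to 0.997 ± 0.185 TPM (log2 fold change -0.74, edgeR adjusted p 0.00313). TRAF6 was close to the fold limit in Pa-Tu-8902 also (-0.57, edgeR adjusted p 0.000547). Most of the relay between receptors and NF-κB, the IκB kinase genes among it, was therefore not called in either line. Smaller changes with an edgeR adjusted p below 0.01 in both lines lay on either side, and are named after their values were seen. In Pa-Tu-8902 and MIA PaCa-2, MAP3K7 was at -0.49 and -0.57, IRAK1 at -0.51 and -0.34 and the IκB kinase gene CHUK at -0.25 and -0.33. TAB3 was at 0.27 and 0.52.

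Of the 16 other subunits, IκB proteins and inhibitors, 2 were called higher in each line and none was called lower. OTULIN, a deubiquitinase, had an adjusted p below 0.01 on the lower side in both lines at under 1.5 fold (log2 fold changes of -0.51, edgeR adjusted p 5.95e-05, and -0.55, edgeR adjusted p 0.000102), and is named after its values were seen. BCL3, a nuclear IκB protein, rose in Pa-Tu-8902 from 12.6 ± 0.947 to 27.7 ± 2.79 TPM (log2 fold change 1.18, edgeR adjusted p 6.14e-07). In MIA PaCa-2 BCL3 was higher at under 1.5 fold (0.41, edgeR adjusted p 0.0017). Its difference between the lines was called at -0.77 (edgeR adjusted p 6.87e-05), with the larger response in Pa-Tu-8902. TNIP1 had the other called difference of this list, 0.59 (edgeR adjusted p 9.22e-05), in the opposite direction. ZC3H12A, an RNase that degrades cytokine transcripts, rose in both lines, by 0.89 in Pa-Tu-8902 (edgeR adjusted p 1.85e-05) and 0.60 in MIA PaCa-2 (edgeR adjusted p 0.00167) on the log2 scale. The second gene in MIA PaCa-2 was NFKBIZ, another nuclear IκB protein, at 0.80 (edgeR adjusted p 0.00663), which is named although its mean lies under 100 normalized counts. Of the 6 other IAP genes 4 were tested and none was called in either line by edgeR or DESeq2, with 1 (Pa-Tu-8902) and 2 (MIA PaCa-2) at an unadjusted p below 0.05 in edgeR, which in the latter line 49.6% of all genes reached.

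Of 26 target genes tested in Pa-Tu-8902, 8 were called higher and 3 lower (beside 9.22% and 7.12% of all genes). C3, the complement component, rose from 2.04, 0.50 and 0.80 TPM to 4.99, 5.66 and 4.02 TPM (log2 fold change 2.22, edgeR adjusted p 2.96e-07), and SAA1, an acute-phase protein, from 16.3 ± 1.90 to 50.6 ± 5.10 TPM (log2 fold change 1.58, edgeR adjusted p 2.54e-06). LIF, a cytokine of the IL-6 family, fell from 25.4 ± 1.38 to 11.8 ± 1.13 TPM (log2 fold change -1.21, edgeR adjusted p 1.43e-07). In MIA PaCa-2 19 target genes were tested, 4 were called and all 4 were higher (beside 4.36% of all genes higher and 7.64% lower). CSF1, the macrophage growth factor, rose there from 8.29 ± 0.805 to 13.9 ± 0.121 TPM (log2 fold change 0.62, edgeR adjusted p 3.76e-05). In Pa-Tu-8902 CSF1 rose also, at under 1.5 fold (log2 fold change 0.53, edgeR adjusted p 1.61e-05). Its difference between the lines was 0.09 (edgeR adjusted p 0.492). The other 3 calls (IL32, TNFRSF9 and EBI3) had means under 100 normalized counts in MIA PaCa-2. CXCL1 (-0.50, edgeR adjusted p 0.00156), CXCL8 (-0.53, edgeR adjusted p 0.000696) and IER3 (-0.47, edgeR adjusted p 0.00501) were lower in MIA PaCa-2 at under 1.5 fold. TNFAIP2 (0.45, edgeR adjusted p 0.00157) and CD83 (0.51, edgeR adjusted p 0.00308) were higher there at under 1.5 fold. So were BCL2L1 (0.28, edgeR adjusted p 0.00307) and SOD2 (0.24, edgeR adjusted p 0.00583). At an adjusted p below 0.05 with no limit on the fold, 41.9% of all genes counted in MIA PaCa-2.

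**Figure D5:**
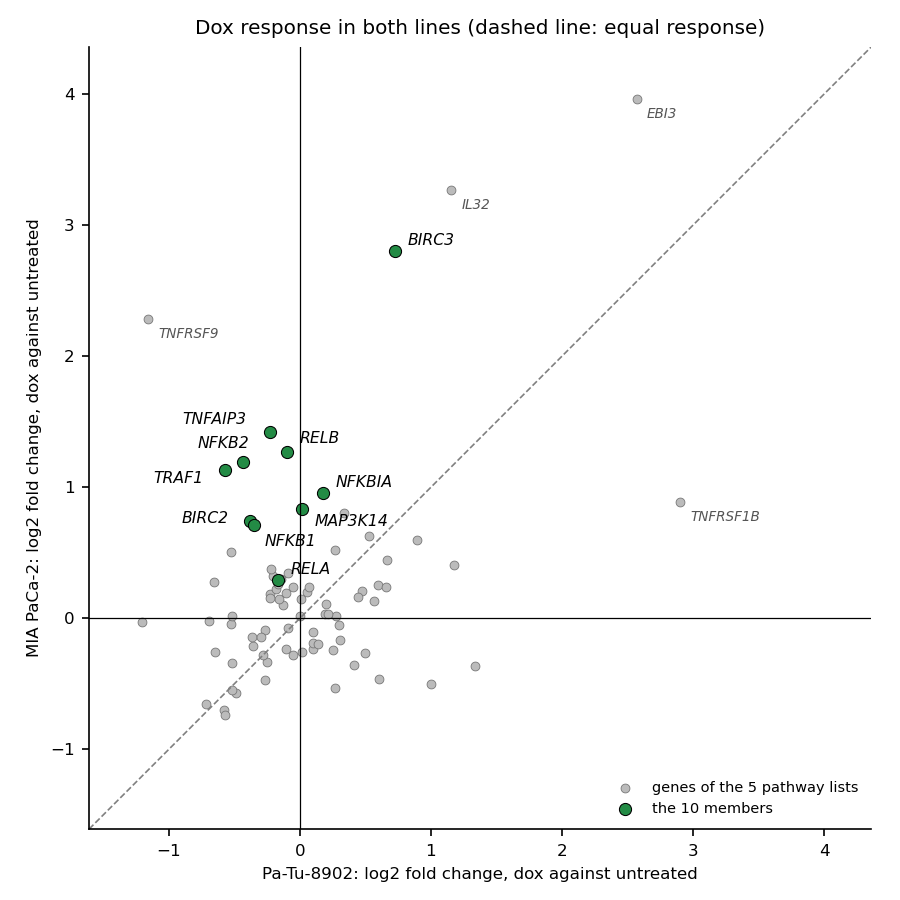
Log2 fold change of dox against untreated in Pa-Tu-8902 (horizontal axis) and in MIA PaCa-2 (vertical axis) for the 72 genes of the pathway lists tested in both lines (grey) and the 10 members (green), with a dashed line where the responses are equal. The members all lie above the dashed line, and the pathway genes lie on both sides of it; grey genes are named where a value exceeds 2 in either line, a choice made after the values were seen.

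Among pathway genes with a called difference between the lines and a mean normalized count of 100 or more over the 12 libraries, the 5 with the largest difference included both directions. Below that limit TNFRSF9 had a larger called difference (3.43, edgeR adjusted p 7.53e-05) and TLR3 one of -1.71 (edgeR adjusted p 0.00475), both named after their values were seen. IL32, an inflammatory mediator, differed by 2.12 on the log2 scale (SE 0.37, edgeR adjusted p 0.000397), with 6.73 ± 0.250 TPM without and 15.8 ± 2.48 TPM with dox in Pa-Tu-8902 against 0.41 ± 0.195 and 3.55 ± 0.554 TPM in MIA PaCa-2. It reached the count limit only through Pa-Tu-8902, where it averaged 188 normalized counts, against 28.2 in MIA PaCa-2. LIF differed by 1.18 (edgeR adjusted p 9.12e-08) in the same direction as IL32. TNFRSF1B differed by -2.02 (edgeR adjusted p 3.65e-08), with the larger response in Pa-Tu-8902. CXCL1, a chemokine, differed by -1.50 (edgeR adjusted p 1.69e-06), at 4.11 ± 0.0850 and 9.01 ± 0.593 TPM in Pa-Tu-8902 and at 116 ± 3.69 and 87.5 ± 6.08 TPM in MIA PaCa-2. IL1R1, the IL-1 receptor, differed by -1.07 (edgeR adjusted p 1.42e-05).

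The genes most like BIRC3 and NFKB2 were ranked by Pearson correlation over the 12 libraries of log2 CPM centred within each line, over the 11638 genes whose mean normalized count reached 100. This is a description: the libraries are shared, and the values follow the 4 groups. CDK6, BAIAP2L1, PAWR, CAV2 and CAV1 were most like BIRC3, with r of 0.988 to 0.989. CDK6, a kinase of the cell cycle, had log2 fold changes of 0.43 (Pa-Tu-8902) and 1.41 (the other line), and CAV1, caveolin-1, of 0.27 and 1.35. SNX5, CLCF1, NAF1, TGM2 and the member BIRC2 were most like NFKB2, with r of 0.977 to 0.984, and TGM2, transglutaminase 2, had log2 fold changes of -0.35 and 1.67. Among the members NFKBIA (0.962) and MAP3K14 (0.960) were most like BIRC3, and BIRC2 (0.977) and TRAF1 (0.964) most like NFKB2. RELA was the least like either, at 0.513 and 0.708. On log2(TPM + 1) 4 of the 5 genes named for BIRC3 were again among the first 5, and 1 of the 5 named for NFKB2.

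Markers of other cell types were set beside these responses. In bulk RNA a change in the number of cells of a type and a change in RNA per cell cannot be told apart. The summed TPM of 6 fibroblast and endothelial markers was 3.84 to 7.34 in untreated and 18.2 to 22.1 in dox-treated Pa-Tu-8902, and 192 to 248 and 340 to 398 in MIA PaCa-2. COL1A1 made up most of this sum in Pa-Tu-8902 and COL1A2 in MIA PaCa-2, while DCN and LUM did not exceed 0.14 TPM in any library. The summed blood cell markers were 5.12 to 7.06 TPM without and 3.55 to 4.59 TPM with dox in Pa-Tu-8902, and 11.4 to 13.6 and 9.20 to 11.4 TPM in MIA PaCa-2. The summed epithelial markers were 9218 to 10311 TPM without and 7888 to 8907 TPM with dox in Pa-Tu-8902. Their part in the responses of the members was not tested.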

How the data were processed

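RNA-seq was performed by the authors on poly(A) RNA of 12 iDox-shGOT1 libraries. Per the labels and the methods of the study, reads were trimmed with Trimmomatic 0.39, aligned to GRCh38 with STAR 2.5.2a called by RSEM 1.3.1 and summarised per gene and transcript. The authors deposited expected counts, which are neither normalized nor filtered, and TPM for each library. Of the expected counts above 0, 15.3% are not whole, and they were rounded here. FPKM values were not used here.

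A gene entered a fit when 3 or more of its libraries reached 10 counts. After TMM normalization the quasi-likelihood test of edgeR 4.0.16 in R 4.3.3 was applied, in each line separately for dox. A fit of all 12 libraries with 4 group means gave the interaction and the untreated comparison. Called genes have a Benjamini-Hochberg adjusted p below 0.01 over all genes tested and at least 1.5 fold. Standard errors were derived from the fold change and its F statistic. The members, the 5 pathway lists, the tests and the thresholds were chosen with earlier results of these data known. Genes named besides the members and GOT1 are, per list and line, the 3 called genes with the largest fold change and a mean of at least 100 normalized counts, the 5 with the largest called difference between the lines, and the 5 most like BIRC3 and NFKB2. Where a symbol had more than 1 identifier, that with more counts was used.

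Libraries with the same replicate number did not deviate together (r of -0.093 to 0.130 over 6 pairs), so no block was used. Replicates differed by more than counting noise (2.25 to 27.3 as chi-square over its degrees of freedom), and none was a duplicate. As alternatives served DESeq2 1.42.0, edgeR with the size factors of DESeq2, other filters, effective lengths as offsets, other thresholds, a replicate block, a joint fit and each library left out. The pipeline was tested on simulated data. Transcripts were assigned to an annotated start within 150 bases. Tables were joined in Python 3.11.15 with pandas 2.3.3.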

Additional observations from a re-analysis of the deposited data

Results flagged for a closer look

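The dox response differed between Pa-Tu-8902 and MIA PaCa-2 by the interaction contrast (edgeR adjusted p below 0.01 and at least 1.5 fold) for 7 tested members. The differences, as response in MIA PaCa-2 minus response in Pa-Tu-8902 on the log2 scale, were 1.12 for BIRC2, 1.06 for NFKB1, 1.37 for RELB, 0.77 for NFKBIA, 1.65 for TNFAIP3, 1.70 for TRAF1 and 0.81 for MAP3K14. All 7 differences were positive.

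The 5 pathway list genes with the largest called difference, among those whose normalized count averaged 100 or more, had values of both signs. Below that limit lay called differences of 3.43 for TNFRSF9 and -1.71 for TLR3. The value was 2.12 for IL32 and 1.18 for LIF, and it was -2.02 for TNFRSF1B, -1.50 for CXCL1 and -1.07 for IL1R1. IL32 reached the limit only through Pa-Tu-8902 and averaged 28.2 normalized counts in MIA PaCa-2.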

How the results depend on the processing

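The counts of members past both limits given here include BIRC3 and NFKB2, which chose the list and were not tested. The count was 9 in MIA PaCa-2 and 9 for the difference between the lines under the main setting (7 and 7 of the 8 tested members), and it lay between 9 and 10 under all alternatives. Untreated cells gave 6 members (4 of the 8) and 5 to 8 under the alternatives. In Pa-Tu-8902 the main count of 1, BIRC3, became 2 with effective lengths as offsets, through TRAF1, and 7 with an adjusted p below 0.05 and no limit on the fold, and leaving out 1 library gave 1 to 2. At that looser threshold the pathway lists gave 55 calls (Pa-Tu-8902) and 39 calls (MIA PaCa-2), in place of 21 and 8. Leaving out 1 library gave 18 to 21 and 4 to 10 such calls. The replicate block gave 1, 9, 9 and 6 members and 20 and 8 pathway genes, and it changed the side of the limits for no member. Directions turned for 2 values near 0. RELB in Pa-Tu-8902 was 0.054 by the ratio of mean TPM, and MAP3K14 between untreated lines was 0.0035 and 0.0099 without untreated replicates 1 and 3 of MIA PaCa-2, in a range of -0.067 to 0.0099 over the libraries left out. NFKB2 between untreated lines fell below 1.5 fold with effective lengths (0.51), with no filter (0.58) and without untreated replicate 1 of MIA PaCa-2 (0.58). The cause was not tested.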
